A study of Arabidopsis thaliana with 22 samples.

Results

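The nuclear genes of the light-harvesting antennae, the photosystem subunits and the small subunit of Rubisco were followed through 22 RNA sequencing libraries of Arabidopsis thaliana seedlings. The group held 45 genes, chosen by locus code, of 24185 loci in the count table. It was made up of 6 LHCA genes, 15 LHCB genes, 4 RBCS genes, 9 photosystem II (PSII) subunit genes and 11 photosystem I (PSI) subunit genes. Of these, 43 had values and all 43 passed the filter on low counts. LHCA5, an antenna gene of photosystem I, and PSBS, the sensor of excess light in photosystem II, are not analysed here. The lowest count of any of the 43 genes in any library was 41, for LHCB7.

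In chloroplasts, photosystem II and photosystem I turn light into electron flow, and pigment proteins around them (LHCB proteins mainly at photosystem II, LHCA proteins at photosystem I) gather that light. Rubisco then fixes carbon dioxide with a large subunit encoded in the chloroplast and a small subunit encoded by the nuclear RBCS family. The nuclear genes of these complexes are among the most highly expressed in green tissue, are induced by light through phytochromes and GLK transcription factors, and are often reported to be repressed under stress.

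The study asked how the transcriptome of several Arabidopsis accessions (inbred natural strains) responds to ultraviolet light. Plants had grown for 14 days on soil, with 16 h of light at 22 °C (150 µmol per square metre and second) and 8 h of dark at 18 °C, at 50% humidity. They received unfiltered light from UV tubes (4.35 W per square metre at 312 nm) or a mock treatment that the labels do not describe, went back to growth conditions and were harvested as whole seedlings 3 h later. How long the exposure lasted is not stated. The 12 groups were the accessions Ba-1, C24 and Got-7, and the accessions Lip-0, Mh-0 and T1080, each labelled mock and UV, and no label names a transgene or mutation. The groups with 1 library were Got-7 UV and T1080 mock, and the other 10 had 2 each. Nothing in the labels tells whether the libraries within a group stem from separate plants. The p-values therefore set a difference only against the spread among these libraries, and that spread may be technical.

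Libraries are compared below in 2 sets, by the sample number in their labels. The first set is samples 1 to 11, all labelled Ba-1, C24 or Got-7 (6 labelled mock and 5 labelled UV), and the second set is samples 12 to 22, all labelled Lip-0, Mh-0 or T1080 (5 labelled mock and 6 labelled UV). Within them, 6 genotype blocks join libraries of both sets: block A is samples 1 and 3 against 12, block B is 2 and 4 against 13 and 14, block C is 5 and 6 against 15 and 16, block D is 7 against 17 and 18, block E is 8 and 9 against 19 and 20, and block F is 10 and 11 against 21 and 22. Both cut across the labels. Each set mixes libraries labelled mock and UV but keeps to its own 3 labelled accessions, and every block joins libraries labelled as different accessions and mixes libraries labelled mock and UV. Sets and blocks were drawn with values of these libraries known, so p-values for them do not come from a division made independently of the data. The sets are not the labelled treatment, what they stand for was not tested, and the labelled accession, or anything else that differs between samples 1 to 11 and 12 to 22, cannot be told apart from the set.

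At loci known to differ between Arabidopsis accessions, libraries of 1 labelled accession did not share a level. FLC, a repressor of flowering, stood at 119 CPM (counts scaled to library size, with TMM factors) in C24 UV 1 and at 1.94 CPM in C24 UV 2, and ESP, which directs glucosinolate breakdown, differed between the mock libraries of Ba-1 (30.4 CPM in replicate 1, 2789.6 CPM in replicate 2). The labels, or the numbers that tie libraries to them, may therefore be wrong for some libraries, and every value by label below is given as labelled. Levels of such loci were in view when the blocks were drawn, so their values by block describe the blocks and are no evidence for them. AOP3, a glucosinolate side chain gene, stood at 387 and 413 CPM in the first-set libraries of block F and at 49.8 and 60.4 CPM in its second-set libraries, against at most 0.313 CPM in the other 18 libraries. ESP stood at 19.3 to 35.2 CPM in block A and at 815 CPM or more elsewhere. FLC stood at 0.160 to 6.90 CPM in blocks E and F and at 66.3 CPM or more in the others. The biological coefficient of variation was 26.7% for libraries grouped by the labels, 13.2% for blocks and sets as additive terms and 6.94% for libraries grouped by block and set, and the last 2 are smaller in part by construction, since those groups were drawn with the values known.

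Library totals ran from 3539510 to 20903894 counts (median 7059048) in the first set and from 6402500 to 19546141 (median 9451357) in the second. Root marker genes were summed at 143 to 308 CPM in the first set and 92.2 to 255 CPM in the second, flower markers at 0.748 to 5.21 and 0 to 1.58 CPM, and seed storage genes at no more than 0.682 CPM. In the set difference, the 3 root markers tested (BGLU23, SHR and SCR) were called lower in the second set, with a median of −0.36, and RHD6, BGLU21 and COBL9, the other root markers, were at or near 0 in both sets. The 2 flower markers tested (AG and SEP3) were also called lower, with a median of −1.65. Their part in the results was not tested.

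Transcripts of the 43 genes were less abundant in the second set. Together they took 11.7% to 14.2% of all counts in the first set (median 12.1%) and 5.52% to 10.2% in the second (median 8.86%), so that the sets did not overlap. In edgeR's quasi-likelihood test with the block as a term, 39 of the 43 genes were lower in the second set at an adjusted p under 0.05, 1 was higher (LHCB7) and 3 were not called (LHCB1.1, LHCB1.4 and LHCB2.3). That is 90.7% lower, where 38.5% of all 18149 loci tested were lower, 37.7% higher and 76.2% called in either direction. The median log2 difference (second set minus first) was −0.67 over the 43 genes and −0.01 over all loci. In 32 of the 43 genes (74.4%) every second-set library lay below every first-set library in all 6 blocks, which held for 23.1% of all loci. In 24 genes (55.8%, against 10.8% of all loci) the sets did not overlap across the 22 libraries at all. Abundant genes, as most of the 43 are, reach such calls and gaps more readily, so the shares are not like for like. In whole seedlings, fewer green cells and less of these RNAs per cell cannot be told apart.

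**Figure D1:**
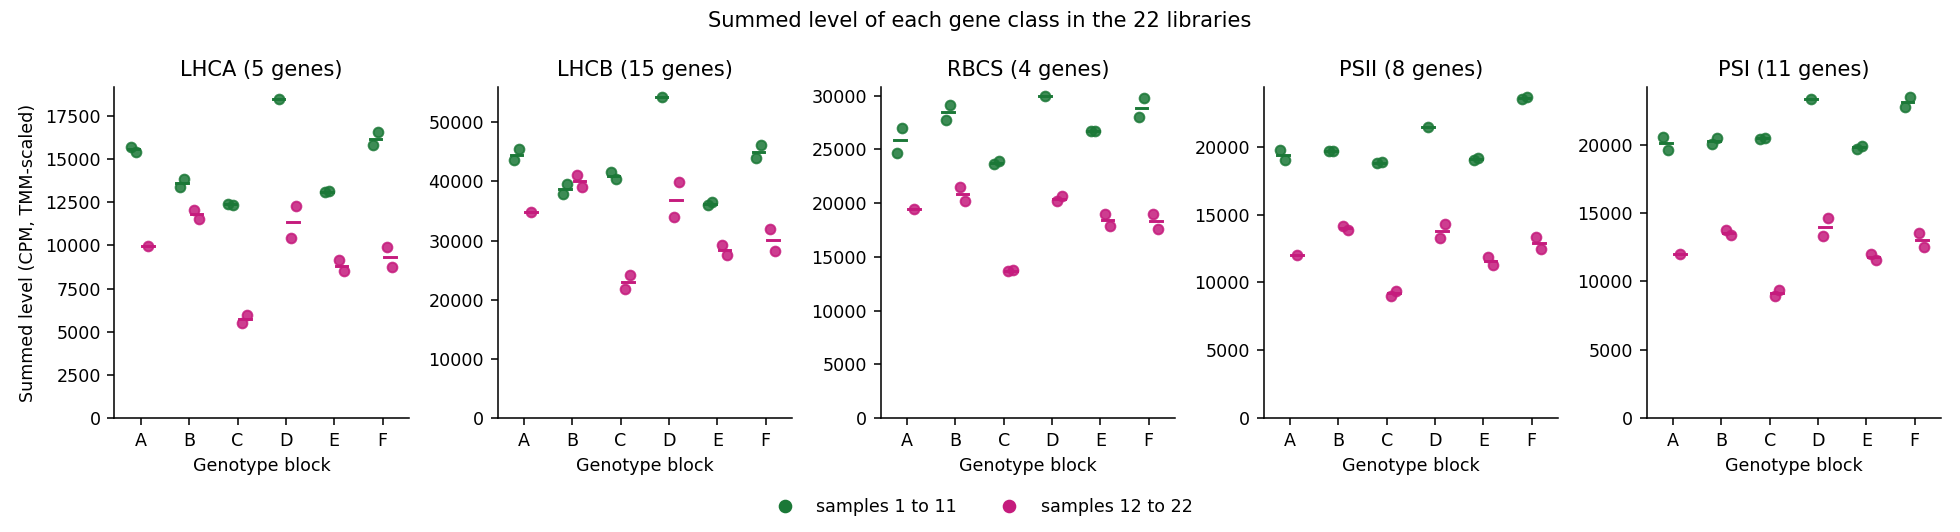
Summed TMM-scaled level (CPM, vertical axis from 0) of each gene class in every library, by genotype block, with samples 1 to 11 in green and samples 12 to 22 in magenta; points are libraries and short lines are means. The second set lies below the first in every block and class except LHCB in block B, where the points overlap.

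Summed by class, the largest gap between sets was in PSI. Its 11 genes summed to 19633 to 23461 CPM in the first set (median 20469) and to 8926 to 14606 CPM in the second (median 12521), a first-set level 1.74 times the second on average over blocks. PSII gave 18780 to 23658 CPM (median 19671) against 9006 to 14299 CPM (median 12444), a ratio of 1.67. Neither complex showed any overlap between sets, as the plot of class sums shows. The LHCA sum was 12339 to 18507 CPM (median 13857) against 5481 to 12255 CPM (median 9884), a ratio of 1.59, also without overlap. RBCS summed to 23672 to 29974 CPM (median 27029) in the first set and 13676 to 21478 CPM (median 19011) in the second, a ratio of 1.48. The smallest gap, at 1.35, was in LHCB, where 35924 to 54280 CPM (median 41602) overlapped with 21870 to 41080 CPM (median 31993). In block B the LHCB sums were 37808 and 39580 CPM in the first set and 41080 and 38999 CPM in the second, the only block and class in which the sets overlapped. No p is given for these sums. They weigh abundant genes most. By the median log2 difference of its genes, RBCS differed most, at −0.85 against −0.81 in PSI.

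Among the LHCA genes, which encode the photosystem I antenna, all 5 measured were lower in the second set, with a class median of −0.68. LHCA1 (AT3G54890), an outer antenna subunit, differed least, with 3127 to 5330 CPM (median 3348) in the first set and 1549 to 3687 CPM (median 2523) in the second. These ranges overlapped, and the difference was −0.55 ± 0.08 (log2, SE; edgeR adjusted p = 3.76e-06). LHCA2, LHCA3 and LHCA4, the other main subunits of the antenna belt, lay between −0.77 and −0.66. LHCA6 (AT1G19150, chr1:6612630-6613972), a minor subunit that helps to link photosystem I to the NDH complex of cyclic electron flow, departed from its class by more than 0.5 log2. It stood at 93.8 to 134 CPM (median 121) in the first set and at 27.2 to 76.7 CPM (median 52.4) in the second. No second-set library reached any first-set library, and the difference was −1.37 ± 0.09 (edgeR adjusted p = 9.08e-11), a first-set level 2.58 times the second. Its lowest levels were in block C, at 27.2 and 29.2 CPM, against 112 and 121 CPM in the first-set libraries of that block.

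**Figure D2:**
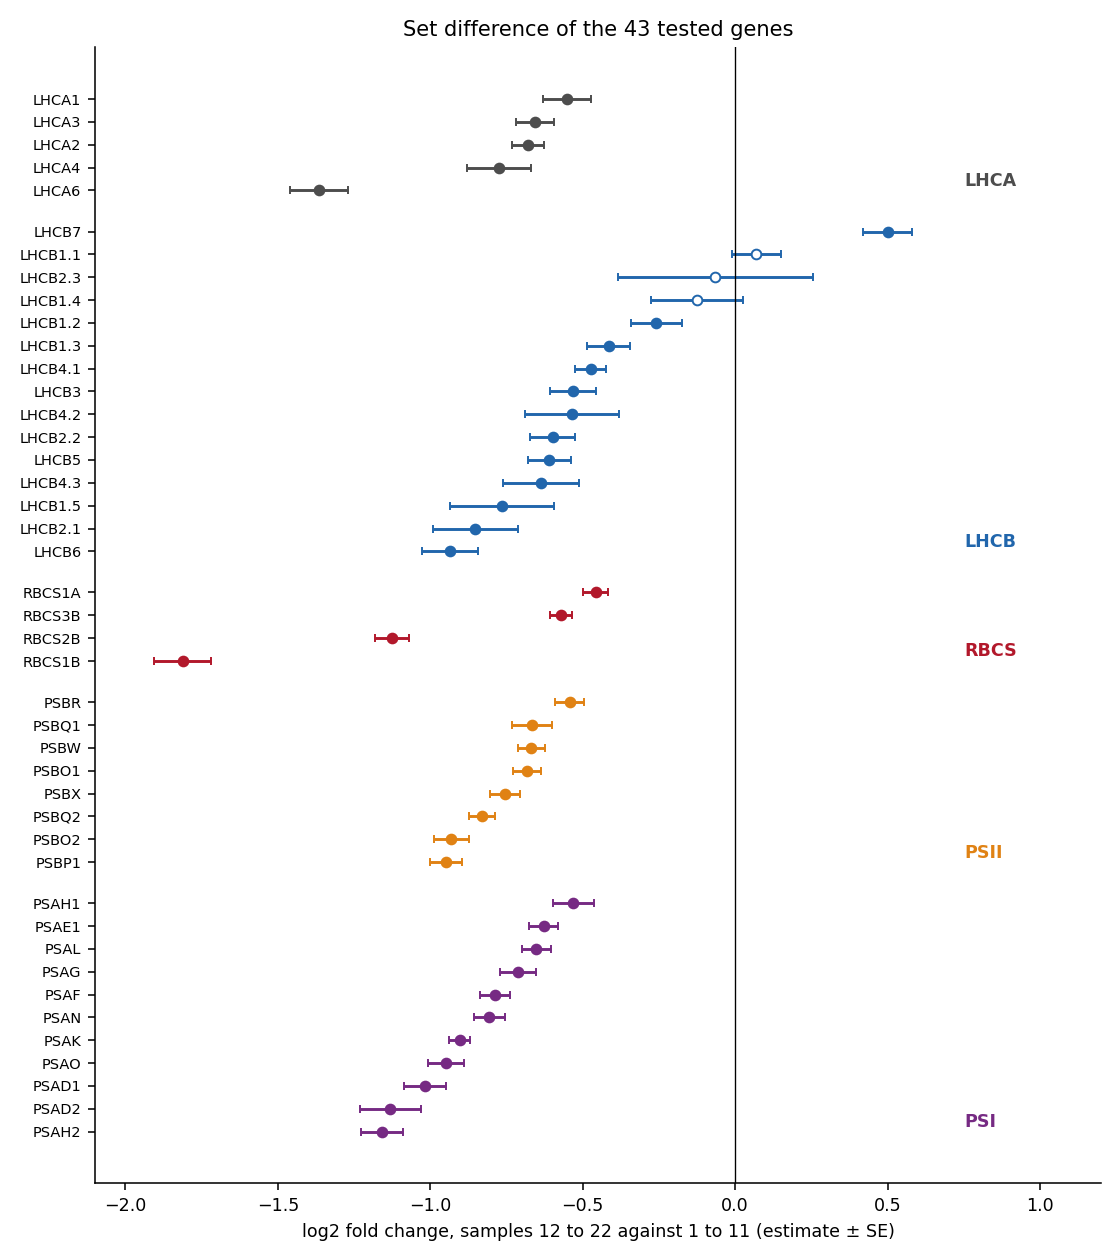
Log2 difference of each of the 43 genes between samples 12 to 22 and samples 1 to 11, with the genotype block in the model; points are estimates, bars are standard errors, and open circles were not called at an adjusted p under 0.05. Genes are grouped by class; RBCS1B at −1.81 lies farthest to the left and LHCB7 at 0.50 is the only gene called to the right of 0.

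LHCB, the antenna of photosystem II, was the most varied class. Of its 15 genes, 11 were lower, 1 was higher and 3 were not called, with a median of −0.53. The lowest was LHCB6 (AT1G15820), a minor antenna protein. It stood at 2688 to 3886 CPM (median 3110) in the first set and 1068 to 2233 CPM (median 1708) in the second. The ranges were apart, and the difference was −0.94 ± 0.09 (edgeR adjusted p = 2.94e-08). LHCB5 and LHCB4.1, which are also minor antenna proteins, differed by −0.61 ± 0.07 and −0.47 ± 0.05, and LHCB3, a subunit of the major trimers, by −0.53 ± 0.08.

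The major trimers are built mostly from LHCB1 and LHCB2 proteins, each encoded by several gene copies. The 5 LHCB1 genes ranged from −0.77 ± 0.17 (LHCB1.5) to 0.07 ± 0.08 (LHCB1.1). LHCB1.1 (AT1G29920, chr1:10474656-10475969) lay 0.60 log2 above its class median and so departed from its class. Its level was 2064 to 3611 CPM (median 2793) in the first set and 2475 to 3478 CPM (median 2789) in the second, an almost complete overlap, and it was not called (edgeR adjusted p = 0.452). Across alternative settings its difference ran from −0.04 to 0.16, so its sign was not fixed. In block B it was higher in the second set by 0.55 (edgeR adjusted p = 0.000968), with 3478 and 3138 CPM against 2064 and 2441 CPM. In block D it was lower by −0.46 (edgeR adjusted p = 0.0119). As a share of all LHCB1 counts, LHCB1.1 took 8.02% to 12.7% (median 10.7%) in the first set and 11.3% to 19.9% (median 14.6%) in the second, higher in 6 of 6 blocks.

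Counts of single LHCB1 copies are uncertain, because coding sequences of LHCB1.1, LHCB1.2 and LHCB1.3, neighbours on chromosome 1, were 95.7% to 96.4% identical in the TAIR10.1 annotation. How reads matching several copies were counted is not stated in the labels. Summed over the 5 copies, LHCB1 stood at 22132 to 32936 CPM (median 25174) in the first set and at 14322 to 27396 CPM (median 19747) in the second, with a mean first-set level 1.26 times the second. The sum was lower in the second set in 5 blocks and higher by 0.20 log2 in block B.

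The LHCB2 copies behaved less uniformly. LHCB2.1 and LHCB2.2 were lower in the second set by −0.85 ± 0.14 and −0.60 ± 0.07. LHCB2.1 also varied inside blocks, at 606 and 288 CPM in the first-set libraries of block A and 470 and 224 CPM in those of block B. LHCB2.3 (AT3G27690, chr3:10255906-10257489) had a difference of −0.07 ± 0.32 (edgeR adjusted p = 0.865), with the largest standard error of the 43 genes. It lay 0.47 log2 above the class median, the nearest gene inside the limit of 0.5 for a departure, where LHCB1.1 at 0.60 was the nearest outside. In block B it stood at 56.3 and 44.5 CPM in the first set and at 235 and 213 CPM in the second, a difference of 2.15 (edgeR adjusted p = 0.000189). In block C it stood at 169 and 155 CPM against 67.4 and 80.1 CPM, a difference of −1.14 (edgeR adjusted p = 0.00757). The opposite directions in these blocks left its mean near 0. Without block B, which was left out after these values were seen, it was called lower at −0.52 (edgeR adjusted p = 0.0266). That call follows from the choice of block and is no separate evidence.

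LHCB7 (AT1G76570, chr1:28728998-28730851), a rare light-harvesting homologue, was the only gene higher in the second set. It stood at 7.44 to 15.5 CPM (median 12.8) in the first set and at 9.29 to 22.9 CPM (median 17.5) in the second, so the sets overlapped across blocks. Within every one of the 6 blocks, its second-set libraries lay above its first-set libraries, which held for 23.3% of all loci. The clearest gap was in block D, at 11.0 CPM against 22.9 and 22.6 CPM, and the smallest in blocks C and F. In C and F the difference was not called, at 0.28 and 0.31 (edgeR adjusted p = 0.0689 and 0.117). The difference was 0.50 ± 0.08 (edgeR adjusted p = 8.76e-06).

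**Figure D3:**
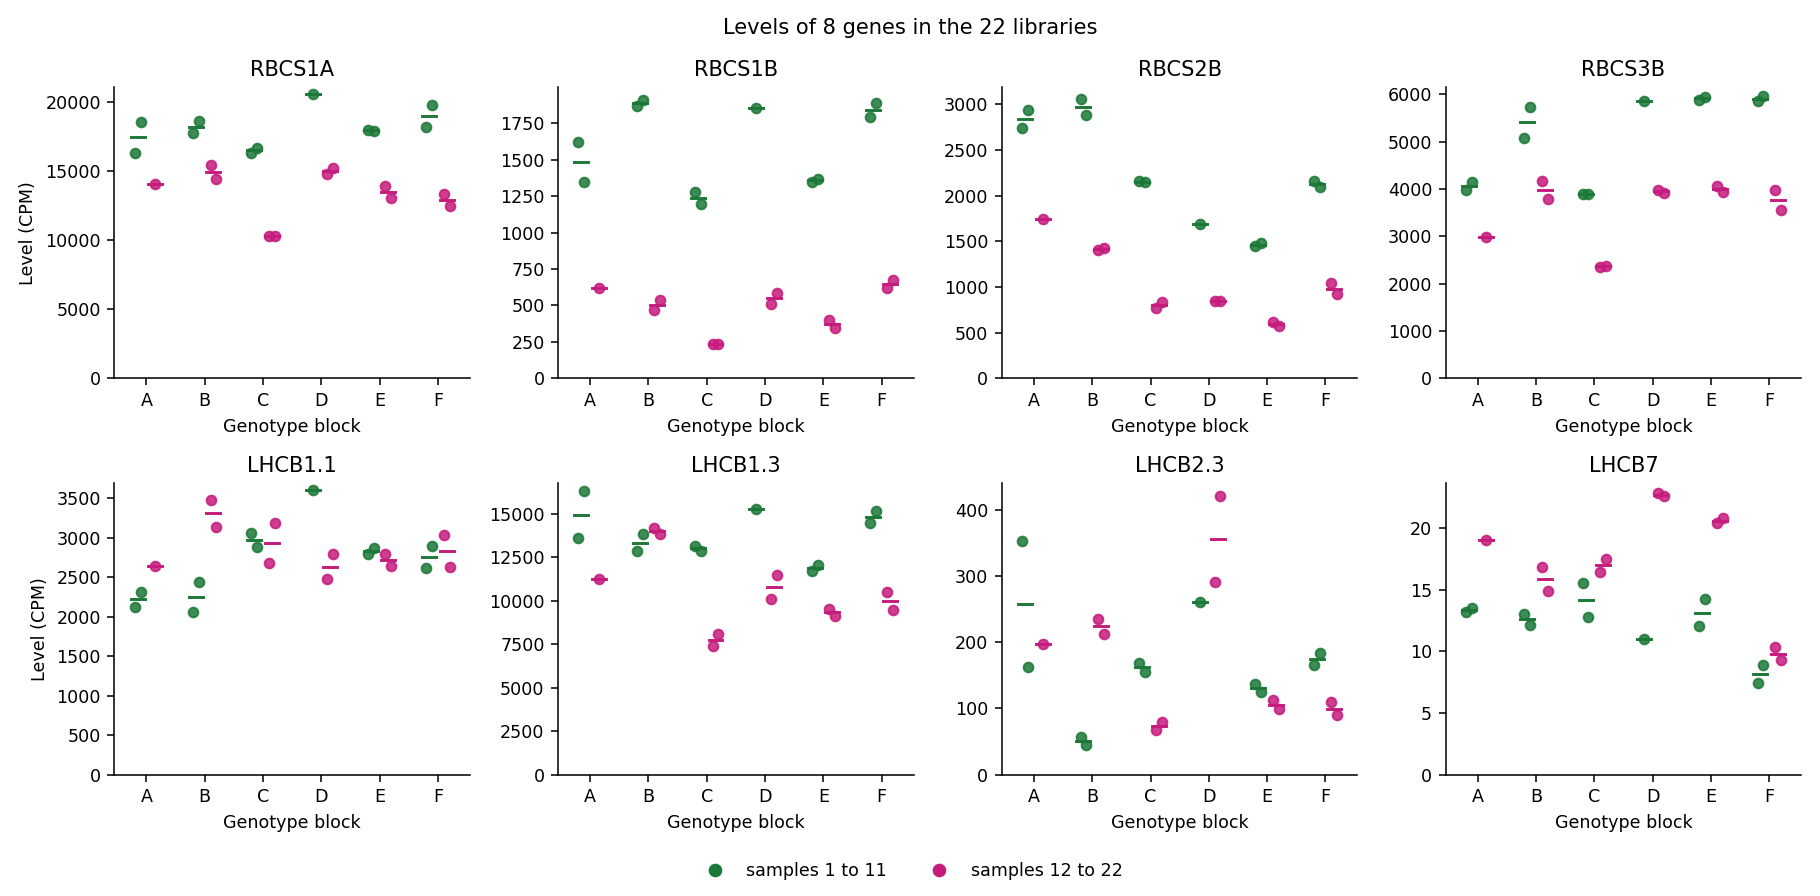
Level (CPM, each vertical axis from 0) of the 4 RBCS genes and of LHCB1.1, LHCB1.3, LHCB2.3 and LHCB7 in every library, by genotype block; points are libraries, short lines are means, and green and magenta are samples 1 to 11 and 12 to 22. Of the RBCS genes, RBCS1B has the widest relative gap in every block, LHCB1.1 overlaps in blocks C, E and F, LHCB2.3 is higher in magenta in blocks B and D, and LHCB7 is higher in magenta throughout.

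The RBCS genes encode the Rubisco small subunit. RBCS1A lies on chromosome 1, and RBCS1B, RBCS2B and RBCS3B lie side by side on chromosome 5. All 4 were lower in the second set, with a class median of −0.85, but by unequal amounts. RBCS1A (AT1G67090), the most abundant copy, differed least. It stood at 16343 to 20566 CPM (median 18011) in the first set and at 10310.0 to 15422 CPM (median 13925) in the second, without overlap, a difference of −0.46 ± 0.04 (edgeR adjusted p = 2.28e-09). RBCS3B (AT5G38410) had 3891 to 5972 CPM (median 5743) against 2363 to 4177 CPM (median 3924), a difference of −0.57 ± 0.04 (edgeR adjusted p = 6.74e-12). RBCS2B (AT5G38420) had 1451 to 3064 CPM (median 2158) against 575 to 1746 CPM (median 852), a difference of −1.13 ± 0.06 (edgeR adjusted p = 1.78e-13). Both overlapped across all 22 libraries, though in no block.

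RBCS1B (AT5G38430, chr5:15383167-15385320) departed from its class and had the largest difference of the 43 genes. Its levels in the first set were 1622 and 1348 CPM in block A, 1868 and 1912 CPM in block B, 1276 and 1194 CPM in block C, 1851 CPM in block D, 1347 and 1367 CPM in block E, and 1790 and 1888 CPM in block F. In the second set it stood at 621 CPM in block A, 471 and 534 CPM in block B, 234 and 236 CPM in block C, 512 and 585 CPM in block D, 399 and 345 CPM in block E, and 616 and 672 CPM in block F. Every second-set library lay below every first-set library, and the difference was −1.81 ± 0.09 (edgeR adjusted p = 3.22e-12), a first-set level 3.51 times the second. As a share of RBCS counts it took 4.99% to 6.73% (median 6.18%) in the first set and 1.71% to 3.81% (median 2.54%) in the second. RBCS1A took 63.9% to 69.7% (median 67.1%) and 70.3% to 75.4% (median 72.8%), higher in 6 of 6 blocks. Coding sequences of RBCS1B and RBCS2B were 97.25% identical and those of the other chromosome 5 pairs 94.1% and 94.3%, so reads may be split between these copies. Summed over the 3 copies they stood at 7241 to 10536 CPM (median 8800) in the first set and 3366 to 6055 CPM (median 5349) in the second, a mean first-set level 1.79 times the second.

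Because the 4 RBCS copies moved together but to different extents, the 250 bases before each gene start are shown here, 5′ to 3′ on the minus strand, from the RefSeq genome and annotation of TAIR10.1. They are chr1:25049668-25049917 (RBCS1A), chr5:15385321-15385570 (RBCS1B), chr5:15382072-15382321 (RBCS2B) and chr5:15378643-15378892 (RBCS3B), and none reaches into a neighbouring gene. Capitals mark letters of the G-box (CACGTG), the I-box (GATAAG) or the CCA1 binding site (AAAAATCT), which are light-related promoter motifs, on either strand.
RBCS1A: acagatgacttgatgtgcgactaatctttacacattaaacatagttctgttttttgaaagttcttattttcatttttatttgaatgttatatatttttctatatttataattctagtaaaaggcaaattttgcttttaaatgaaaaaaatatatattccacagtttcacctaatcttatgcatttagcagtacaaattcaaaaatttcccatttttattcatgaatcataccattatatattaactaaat
RBCS1B: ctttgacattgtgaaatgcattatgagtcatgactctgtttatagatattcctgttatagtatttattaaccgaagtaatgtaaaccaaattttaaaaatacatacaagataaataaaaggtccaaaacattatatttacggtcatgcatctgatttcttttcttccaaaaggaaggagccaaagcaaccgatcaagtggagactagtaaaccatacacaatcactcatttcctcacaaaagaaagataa
RBCS2B: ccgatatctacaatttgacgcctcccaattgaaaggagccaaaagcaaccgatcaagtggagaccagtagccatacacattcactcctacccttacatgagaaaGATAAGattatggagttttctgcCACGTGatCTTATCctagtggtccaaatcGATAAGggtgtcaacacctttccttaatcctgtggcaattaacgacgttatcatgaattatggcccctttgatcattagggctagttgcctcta
RBCS3B: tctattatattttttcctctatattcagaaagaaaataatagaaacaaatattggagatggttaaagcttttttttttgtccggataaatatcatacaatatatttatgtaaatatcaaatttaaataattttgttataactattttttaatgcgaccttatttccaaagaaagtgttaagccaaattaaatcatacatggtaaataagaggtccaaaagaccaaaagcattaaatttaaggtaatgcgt

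RBCS2B, the copy with the second largest difference, had 1 G-box and 3 I-box matches that did not overlap each other. The other 3 windows held no complete match. The RBCS1B window ended in GATAA, the first letters of an I-box, and bases past the annotated start were not searched. Windows were placed by annotated starts and not aligned between copies, so these counts do not compare matching stretches. Annotated gene starts may lie upstream of the start used in seedlings, so a motif in the promoter proper can fall outside these windows. Over the 45 genes, 9 windows held a G-box (20.0%, against 6.49% of 27443 genes), 10 an I-box (22.2% against 12.3%) and 5 a CCA1 site (11.1% against 6.69%). These are counts of letters and not of bound sites.

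The PSII genes were uniformly lower. All 8 measured had a difference between −0.95 and −0.54, with a median of −0.72, and in every block all 8 were called lower. PSBP1 (AT1G06680), an extrinsic subunit of the water-splitting complex, differed most, at 3956 to 4947 CPM (median 4256) in the first set and 1564 to 2767 CPM (median 2281) in the second. The difference was −0.95 ± 0.05 (edgeR adjusted p = 1.07e-12) and the ranges were apart. PSBR (AT1G79040), which helps to anchor those extrinsic subunits, differed least, at 2092 to 2761 CPM (median 2197) against 1323 to 1871 CPM (median 1683). Its ranges were also apart, with a difference of −0.54 ± 0.05 (edgeR adjusted p = 1.33e-09). Of the other extrinsic subunits, PSBO1 and PSBO2, which stabilize the manganese cluster, differed by −0.68 ± 0.05 and −0.93 ± 0.06, and PSBQ1 and PSBQ2 by −0.67 ± 0.06 and −0.83 ± 0.04. PSBW and PSBX, small membrane subunits, gave −0.67 ± 0.04 and −0.76 ± 0.05. All 8 genes had sets that did not overlap across the 22 libraries.

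In PSI, all 11 genes were lower, from −1.16 to −0.53 with a median of −0.81. PSAH2 (AT1G52230), a docking subunit for the mobile antenna, differed most. It stood at 943 to 1130 CPM (median 1016) in the first set and at 297 to 567 CPM (median 472) in the second, without overlap, a difference of −1.16 ± 0.07 (edgeR adjusted p = 5.31e-12). Its paralogue PSAH1 (AT3G16140) differed least, at 492 to 831 CPM (median 662) against 375 to 543 CPM (median 499). These ranges overlapped, with a difference of −0.53 ± 0.07 (edgeR adjusted p = 4.42e-07). PSAH2 took 57.5% to 66.8% of the counts of the pair in the first set (median 59.9%) and 43.4% to 55.6% in the second (median 50.0%), lower in 6 of 6 blocks.

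The stromal ferredoxin-docking subunits of PSI differed by unequal amounts too. PSAD1 and PSAD2 gave −1.02 ± 0.07 and −1.13 ± 0.10, and PSAE1 gave −0.63 ± 0.05. PSAF, which binds plastocyanin, gave −0.79 ± 0.05, and PSAN, on the lumen side, gave −0.81 ± 0.05. PSAG, PSAL and PSAO, which are membrane subunits, gave −0.71 ± 0.06, −0.65 ± 0.05 and −0.95 ± 0.06. PSAK (AT1G30380), a membrane subunit near the antenna, had the smallest p of the 43 genes. Its level was 1227 to 1547 CPM (median 1407) in the first set and 651 to 898 CPM (median 773) in the second, with no overlap and a difference of −0.90 ± 0.03 (edgeR adjusted p = 2.71e-15).

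Tested within blocks, the genes called lower numbered 36 of 43 in block A, 29 in B, 41 in C, 38 in D, 35 in E and 39 in F. Over all loci, 22.3%, 29.1%, 34.3%, 26.4%, 26.8% and 27.4% were lower in those blocks. Genes called higher numbered 1, 4, 0, 1, 1 and 0, where 24.6%, 28.2%, 34.4%, 27.2%, 27% and 27.7% of all loci were higher. The 4 in block B were LHCB1.1, LHCB1.2, LHCB2.3 and LHCB7. As most of the 43 genes are abundant, the counts by block and the shares of all loci are not like for like. Blocks A and D have a lone library in 1 set, which was assumed to vary like the others.

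The size of the set difference was not the same in every block. The median log2 difference over the 43 genes was −0.63 in block A, −0.41 in B, −1.04 in C, −0.63 in D, −0.60 in E and −0.79 in F. Block C had the most negative value for 40 of the 43 genes and block B the least negative for 32. An F test of the difference between blocks passed for 41 of 43 genes, against 33.5% of all loci. The exceptions were LHCB2.1 (edgeR adjusted p = 0.757) and PSAK (edgeR adjusted p = 0.0571), whose difference stayed between −1.05 and −0.73. Most of the 43 genes are abundant, where such a test passes more readily, so 41 of 43 and 33.5% are not like for like. PSAD1 and PSAD2 varied most clearly by p. PSAD1 differed by −1.60 in block C and by −0.82 to −0.92 in the other 5 (edgeR adjusted p = 5.44e-08 for the variation), and PSAD2 by −1.91 in block C and by −0.82 to −1.24 in the others (edgeR adjusted p = 1.54e-07).

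**Figure D4:**
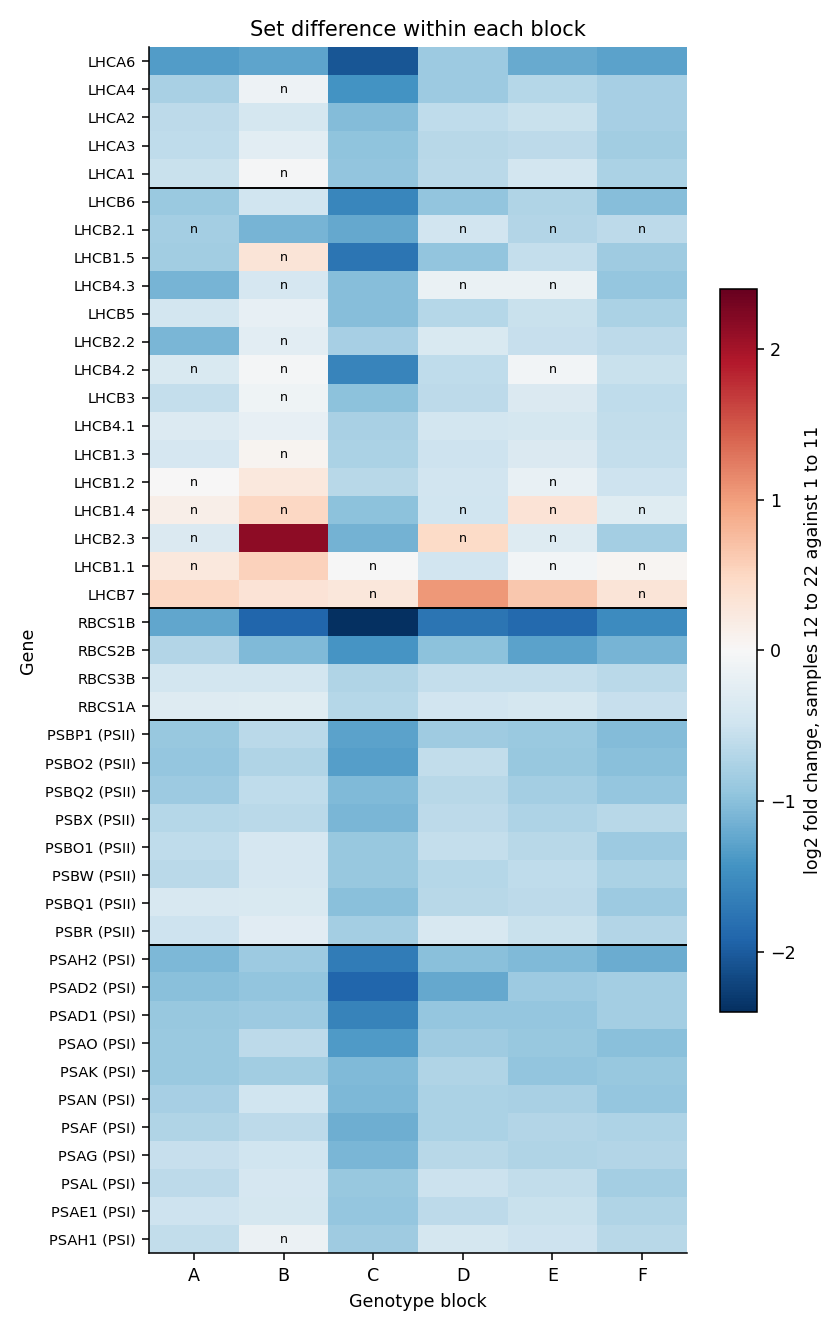
Log2 difference between samples 12 to 22 and samples 1 to 11 within each genotype block (columns) for the 43 genes (grouped by class), in blue where the second set was lower and red where it was higher; n marks a difference that was not called at an adjusted p under 0.05. Block C is the darkest column, block B the palest, and LHCB7 is the only gene above 0 in all 6 blocks.

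Levels also differed between blocks apart from the set. The F test for blocks passed for 37 of 43 genes (86%), against 72% of all loci, so most loci passed as well. Here too the shares are not like for like, because most of the 43 genes are abundant. The blocks had been drawn with values of these libraries known. RBCS2B, RBCS3B, LHCA3 and PSBO2 had the smallest p. In the first set, RBCS2B was lowest in block E and highest in block B, at means of 1464 and 2973 CPM, and RBCS3B was lowest in block C and highest in block E, at 3894 and 5921 CPM. LHCA3 ranged from 2220 CPM in block C to 4245 CPM in block F, and PSBO2 from 1027 CPM in block C to 1654 CPM in block F. Neighbouring copies therefore did not share an order of blocks.

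Divided by exon length, the first-set median level was highest for RBCS1A, at 14204 CPM per kb, and next for LHCB1.3, at 11060. LHCB1.2 followed at 4263 and RBCS3B at 4073 CPM per kb. The lowest were LHCB7 at 10.5, LHCB4.3, a form of the minor antenna protein LHCB4, at 15.7 and LHCA6 at 104 CPM per kb. Of the 4 genes that departed from their class, LHCB7 and LHCA6 thus stood among the 3 lowest, RBCS1B was 33rd at 856 and LHCB1.1 was 22nd at 2126 CPM per kb.

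Compared by the labelled treatment, no gene passed the test. The mean UV effect over the 6 labelled accessions (UV minus mock) was called for 0 of 43 genes and for 0% of all loci in edgeR's quasi-likelihood test. At an unadjusted p under 0.05 there were 1 gene of the 43 and 504 loci, and limma voom and DESeq2 also called 0 of the 43. Those tests all used the labelled groups, and labels may be wrong for some libraries. A lack of calls therefore does not show a lack of UV effect. The median log2 effect was 0.07 over the 43 genes and 0.00 over all loci. LHCB7 had the smallest p, at 7.44 to 22.9 CPM (median 15.5) in 11 libraries labelled mock and 8.91 to 22.6 CPM (median 12.1) in 11 labelled UV. These ranges overlapped almost wholly, with an effect of −0.30 ± 0.11 (edgeR quasi-likelihood adjusted p = 1.00; unadjusted p 0.0174). PSAD2 came next, at 144 to 577 CPM (median 461) in mock and 128 to 842 CPM (median 385) in UV, with an effect of 0.21 ± 0.15 (edgeR quasi-likelihood adjusted p = 1.00; unadjusted p 0.175).

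Within each labelled accession, 0 of 43 genes were called as well. The smallest unadjusted p was that of LHCB7 in T1080, at −1.08 ± 0.29 (edgeR adjusted p = 0.461), and LHCB4.3 in C24 had the largest effect, at −1.35 ± 0.46 (edgeR adjusted p = 0.192). The share of all loci called was 0% in Ba-1, Got-7, Lip-0 and Mh-0, 0.27% in C24 and 0.00551% in T1080. The median log2 effect was negative in Lip-0 (−0.26) and Ba-1 (−0.01) and positive in Mh-0 (0.26), T1080 (0.17), Got-7 (0.16) and C24 (0.12). The F test for a difference between these effects called 0 of 43 genes and 0% of all loci. Libraries of 1 labelled group could lie far apart: the 43 genes summed to 98033 CPM in Lip-0 UV 1 and 58959 CPM in Lip-0 UV 2, and to 62640 CPM in Mh-0 mock 1 and 91155 CPM in Mh-0 mock 2. Those of Lip-0 UV lie in blocks B and C, and those of Mh-0 mock in blocks C and D.

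**Figure D5:**
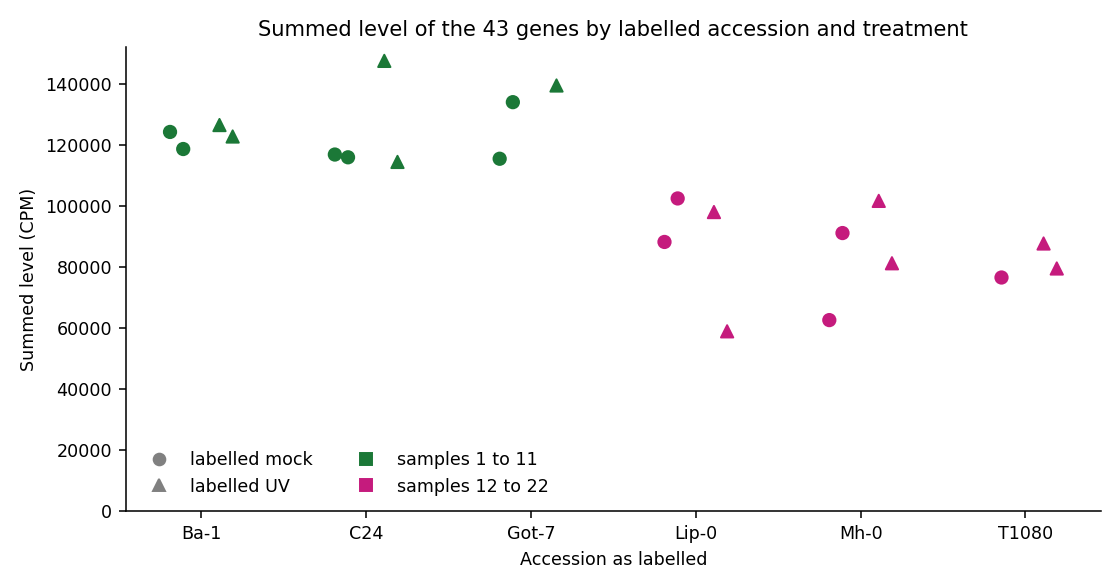
Summed TMM-scaled level of the 43 genes (CPM, vertical axis from 0) in each library by labelled accession, with circles for libraries labelled mock, triangles for libraries labelled UV, green for samples 1 to 11 and magenta for samples 12 to 22. All green points lie above all magenta points, and circles and triangles are interspersed within both colours.

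Other genes of the same pathways were mostly lower in the second set as well, where 38.5% of all loci were lower and 37.7% higher. Of the Calvin cycle genes, which fix and reduce carbon, 15 of 15 were lower. GAPA2 (−1.08 ± 0.04, edgeR adjusted p = 2.83e-15), a chloroplast glyceraldehyde phosphate dehydrogenase, and RPI3 (−0.81 ± 0.03, edgeR adjusted p = 4.00e-15), a ribose phosphate isomerase, had the smallest p. Of 11 genes of electron transport and ATP synthase, 10 were lower, led by the ferredoxin reductase LFNR2 (−0.99 ± 0.04) and the ATP synthase subunit ATPD (−1.26 ± 0.05). Of 13 other photosystem, assembly and repair genes, 12 were lower, among them CPSRP54 (−0.63 ± 0.04), which guides antenna proteins to the thylakoid, and the subunit PSBY (−0.81 ± 0.06). FTSH5, a thylakoid protease, was higher at 0.21 ± 0.04, while FTSH2, another FTSH gene of this list, was lower at −0.12 ± 0.04.

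Chlorophyll synthesis genes were lower in 12 of 15, including the magnesium chelatase subunit CHLI1 (−0.76 ± 0.04) and the methyltransferase CHLM (−0.89 ± 0.06). HEMA1, at the entry of the pathway, was higher at 0.47 ± 0.06 (edgeR adjusted p = 6.62e-07). Of 14 regulators of photosynthesis genes, 11 were lower and 2 higher. GLK1 and GLK2, activators of antenna and chlorophyll genes, were lower at −1.28 ± 0.13 and −1.29 ± 0.08. SIG5, a plastid sigma factor induced by blue light and stress, stood at 3.59 to 6.95 CPM (median 5.04) in the first set and at 19.4 to 88.4 CPM (median 49.9) in the second, a difference of 3.25 ± 0.16 (edgeR adjusted p = 7.46e-13). SIG2, the sigma factor for plastid tRNA genes, was lower at −0.66 ± 0.04. The listed phytochrome-interacting factors PIF3 and PIF1 went opposite ways, at 1.01 ± 0.16 and −0.97 ± 0.12. HY5, a light-signalling activator, was not called at −0.01 ± 0.11. FTSH5, FTSH2, HEMA1, GLK1, GLK2, PIF3, PIF1 and HY5 were picked out after their values were seen. No gene of these 5 lists was called for the mean labelled UV effect.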

How the data were processed

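Per the labels, TruSeq libraries were made from DNase-treated total RNA of whole seedlings. The authors deposited a raw count for each locus and library, as whole numbers that had not been normalized. The submitters' processing notes name TopHat, FastQC and 2 genome builds (TAIR9 and TAIR10), without roles. Which program and annotation gave the counts, whether strand was used, and how reads matching several loci were treated is not stated in the labels. All columns matched a sample number, with 0 left over.

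Robust quasi-likelihood fits of edgeR 4.0.16 (R 4.3.3, TMM factors) covered the 18149 loci that reached 1 CPM in 2 or more libraries, with Benjamini-Hochberg adjustment over all of them. The set difference came from a model of block plus set, within-block differences and their variation from 12 means of block and set, and labelled effects from 12 means of accession and treatment. The models for the set difference and the labelled effects were run on simulated counts before use. The alternatives were limma voom (limma 3.58.1), DESeq2 1.42.0, other scaling, no filter, no genotype block, a replicate block, leaving out each library in turn and leaving out blocks, the last chosen after seeing the data.

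The 43 genes, the sets, the blocks and the lists of other genes were chosen with earlier results of these data known. Genes were given in full by a rule: the highest and lowest set difference of each class, departures of more than 0.5 log2 from the class median, calls against the class, and the smallest p in 3 other tests (4, 4 and 2 genes). LHCB2.3 and PSAK were given in full outside this rule. From each list of other pathway genes, the 2 with the smallest p were named, and further genes were picked out after their values were seen.

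Coding sequences and upstream windows of 250 bases came from the RefSeq genome and annotation of assembly TAIR10.1, which may differ from the annotation behind the counts. Pairs of libraries differed by more than sampling noise everywhere: chi-square per locus was 1.86 to 66.9 in 10 labelled pairs and 1.70 to 7.34 in 10 pairs of the same block and set, where sampling noise alone gives 1.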

Additional observations from a re-analysis of the deposited data

Results flagged for a closer look

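The set difference was not the same size in all 6 genotype blocks for 41 of the 43 genes. This came from an F test for the variation between blocks (edgeR's quasi-likelihood test, adjusted over all loci), which passed for 33.5% of all loci. Most of the 43 genes are abundant, where such a test passes more readily, so these shares are not like for like. Because blocks and sets were drawn with values of these libraries known, the variation is between those blocks and not between labelled groups. The clearest cases by p were PSAD1 (edgeR adjusted p = 5.44e-08), PSAD2 (edgeR adjusted p = 1.538e-07), PSBR (edgeR adjusted p = 3.5e-06) and PSAH2 (edgeR adjusted p = 3.868e-06). PSBR differed by −0.27 in block B and −0.81 in block C, and PSAH2 by −0.87 in block B and −1.68 in block C. PSAD1 and PSAD2 were likewise lowest against the first set in block C, at −1.60 and −1.91. PSBR and PSAH2 differed least in block B, and PSAD1 and PSAD2 in block F, at −0.82 each.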

How the results depend on the processing

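The first settings were DESeq2 size factors, TMM factors computed without the 45 genes, no filter on low counts and limma voom. Under these, all counts of genes called stayed within 1.5 times the values given above. No gene gained or lost a call, and no called gene or class median changed direction. For genes not called, a change of sign was not counted. The DESeq2 Wald test, run for the set difference and the mean labelled effect only, called 39 genes lower and 1 higher between sets and 0 for the labelled effect. Scaling choices left the median of all loci within 0.1 log2 of its value. Leaving out each library in turn left 39 genes lower and 1 to 2 higher. The second gene was LHCB1.1, at 0.16 (edgeR adjusted p = 0.0484) without C24 UV 1, the only first-set library of block D. The number of genes called lower in block B ran from 25 to 30 and the number whose set difference varied between blocks from 34 to 42. Without the genotype block, LHCB1.2 (−0.21, edgeR adjusted p = 0.250) and LHCB2.1 (−0.59, edgeR adjusted p = 0.0892) lost their calls. Without block C, LHCB1.2 did (−0.14, edgeR adjusted p = 0.154), and class medians came to −0.57 (LHCA), −0.38 (LHCB), −0.78 (RBCS), −0.63 (PSII) and −0.72 (PSI). Without block B, the PSII and PSI medians were −0.76 and −0.88. Replicate numbers in the labels did not consistently pair mock and UV libraries. Deviations of replicate 1 from its group mean, over all loci tested, were correlated between mock and UV. The correlation was 0.60 in Ba-1, −0.00 in C24, −0.34 in Lip-0 and −0.28 in Mh-0. With the replicate block, 0 of the 43 genes were called for the labelled UV effects, as without it. Depth limits LHCB7 and LHCB4.3 most, since they had the lowest levels.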
